A study of Homo sapiens with 12 samples.

Results

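The RNAs encoded by the mitochondrial genome were followed in 12 total RNA libraries of SH-SY5Y cells, a human neuroblastoma line that takes on a neuron-like form under all-trans retinoic acid (ATRA). The members were the 37 gene symbols that begin with MT-, out of 55765 listed in each library: 13 protein genes, 2 ribosomal RNA (rRNA) genes and 22 transfer RNA (tRNA) genes. All 12 cultures received ATRA for 7 days. In the co-treatment experiment, 3 cultures were exposed to hydrogen peroxide (H2O2) throughout those 7 days and 3 received ATRA alone. In the pre-treatment experiment, H2O2 was given to 3 cultures during the 72 h that preceded ATRA, and 3 had ATRA alone. The H2O2 concentration is 10 μM in the study's methods but stands as 10 mM in the labels. The labels do not say whether replicates were independent cultures, so the spread between them may be technical. SH-SY5Y is 1 line, a subclone of SK-N-SH, which the labels name as the source.

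The mitochondrial genome is a small circle transcribed from both strands into long RNAs that span many genes and are then cut at the tRNAs that stand between the coding sequences. The heavy-strand transcript carries both rRNAs, most tRNAs and all mRNAs except MT-ND6, while the light-strand transcript carries MT-ND6 and a minority of the tRNAs. The proteins are core subunits of respiratory complexes I, III, IV and V, which are completed by subunits encoded in the nucleus, and complexes I and III are a main source of reactive oxygen species. Of the 37 genes, 12 protein genes, 2 rRNA genes and 14 tRNA genes lie on the heavy-strand transcript, and 1 protein gene and 8 tRNA genes on the light-strand transcript.

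Libraries held between 27576276 and 98287391 gene counts. Of 9 markers of noradrenergic neuroblastoma and neurons, 8 were at 24.7 CPM (counts per 1000000 gene counts, scaled by TMM, a factor that evens out library composition) or more in every library, whereas TH, the tyrosine hydroxylase gene, was at most 0.263 CPM. The summed level of 4 epithelial markers stayed between 0.640 and 2.02 CPM, that of 3 blood markers at or below 0.746 CPM, and that of 5 mesenchymal markers between 15.4 and 42.0 CPM outside the H2O2 pre-treated libraries, where it was 88.0 to 115 CPM, nearly all from COL3A1. The part of this in the results was not tested. Among the mitochondrially encoded RNAs, 2 libraries stood apart from the others of their group. Control replicate 1 of the co-treatment carried 0.636% of its gene counts on the 2 rRNA genes, against 0.0274% to 0.135% in the other 11 libraries. Control replicate 3 of the pre-treatment lay nearer to the mean of the H2O2 libraries than to that of its fellow controls for 17 of the 19 members tested in every comparison, and beyond all 3 H2O2 libraries for 14 of them. The exceptions were MT-ND3 and MT-ND6. Set against the libraries of both experiments, it was pre-treatment controls 1 and 2 that differed for some members. MT-CYB was at 335 and 575 CPM in them, against 76.3 to 145 CPM in every other library. MT-ND4 was at 245 and 377 CPM, against 81.9 to 164 CPM. The cause was not tested. Many results, though not all, that rest on co-treatment control replicate 1 or pre-treatment control replicate 3 are given with and without that library.

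Of the 22 tRNA genes, 4 were counted in earnest: MT-TP, MT-TC, MT-TN and MT-TY, the tRNAs for proline, cysteine, asparagine and tyrosine. They took 99.7% of all tRNA counts and had at least 72 counts in every library. Of the other 18, 6 had no count in any of the 12 libraries, which allows up to 3 counts per library, and 12 reached no more than 38. All 4 lie on the light-strand transcript, together with 4 light-strand tRNA genes that were hardly counted. MT-TP is the first gene downstream of the light-strand promoter. Their sequences are shown because they are the only tRNAs with measurable levels, with MT-TT, a heavy-strand neighbour that lies 2 bases from MT-TP and had at most 3 counts, for contrast. Each is written 5′ to 3′ on its own strand with the anticodon in capitals, found as the triplet at the centre of a 7-base loop.
MT-TP: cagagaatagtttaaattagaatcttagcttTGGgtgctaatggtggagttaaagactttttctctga
MT-TC: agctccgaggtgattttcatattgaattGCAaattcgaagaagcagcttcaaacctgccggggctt
MT-TN: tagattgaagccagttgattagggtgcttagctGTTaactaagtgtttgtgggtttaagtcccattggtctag
MT-TY: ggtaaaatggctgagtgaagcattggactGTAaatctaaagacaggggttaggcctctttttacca
MT-TT: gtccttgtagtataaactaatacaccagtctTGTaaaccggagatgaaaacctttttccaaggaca

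In GRCh37 coordinates of the 16569-base mitochondrial chromosome, MT-TP is at chrM:15956-16023, MT-TC at chrM:5761-5826, MT-TN at chrM:5657-5729 and MT-TY at chrM:5826-5891, all on the minus strand, and MT-TT at chrM:15888-15953 on the plus strand. MT-TC and MT-TN are separated by 31 bases with no gene, the region of the light-strand replication origin. The gap is written on the minus strand, with the 8 bases of each arm of its inverted repeat that lie inside it in capitals. The repeat is longer than the capitals: the ctt that ends MT-TC, directly before the gap, pairs with the aag that ends the gap.
gap between MT-TN and MT-TC: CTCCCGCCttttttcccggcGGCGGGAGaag

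Most tRNA genes abut their neighbours. The 4 counted genes each had an unannotated stretch on one side, of 1122 bases for MT-TP (the control region), 31 for MT-TC and MT-TN and 12 for MT-TY. Only 2 other tRNA genes had more than 7 such bases, MT-TK with 25 and MT-TF with 1122, and these had at most 9 and 38 counts. Reads that touch more than 1 gene can stand as ambiguous and go uncounted, so a read that runs from a short gene into the next on the same strand may add to neither. For a neighbour on the other strand this depends on the strand setting of the counting, which is not given. The loss also depends on the counting mode, which the study's methods do not state. The stretches above were measured without regard to strand. The part of this in the tRNA counts was not tested.

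By the median over all 12 libraries, the highest levels per gene length were those of the 3 core subunits of cytochrome c oxidase (complex IV). MT-CO3 had a median of 2227 CPM per kilobase over the 12 libraries, with a range of 1812 to 4501. MT-CO1 followed with a median of 1223 (815 to 2266) and MT-CO2 with 844 (571 to 1477). These 3 genes together took 76.0% to 90.9% of the counts on the 13 protein genes. After them came MT-TP (median 712), MT-TC (706), MT-RNR2, the large-subunit rRNA (294), and MT-TN (228). The counted tRNA genes, of 66 to 73 bases, are shorter than a read of 150 bases. Their values per kilobase are therefore not on the scale of the longer genes, and their rank beside them is not resolved. MT-ND3, a complex I subunit, was at 137 CPM per kilobase. MT-ATP6 of the ATP synthase was at 115, MT-ND4 at 105 and MT-CYB, the cytochrome b of complex III, at 104. The ranges of these last genes overlapped throughout, so their order was not resolved. The order also differed between groups: in the H2O2 pre-treated libraries the means of MT-TP and MT-TC (1265 ± 414 and 1047 ± 99.2 CPM per kilobase) were above that of MT-CO2 (698 ± 105), with MT-CO1 at 1059 ± 76.5, and in co-treatment control replicate 1 MT-RNR2 reached 3242. The lowest protein genes were MT-ND2 (36.8), MT-ATP8 (35.8) and MT-ND6 (29.8). Reads that were not counted can lower MT-ATP8, which shares 46 bases with MT-ATP6, and MT-ND2, part of which has an exact match in the nucleus. The rRNA levels are those left after rRNA depletion with the Ribo-Zero kit and are no measure of the rRNA in the cell.

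**Figure D1:**
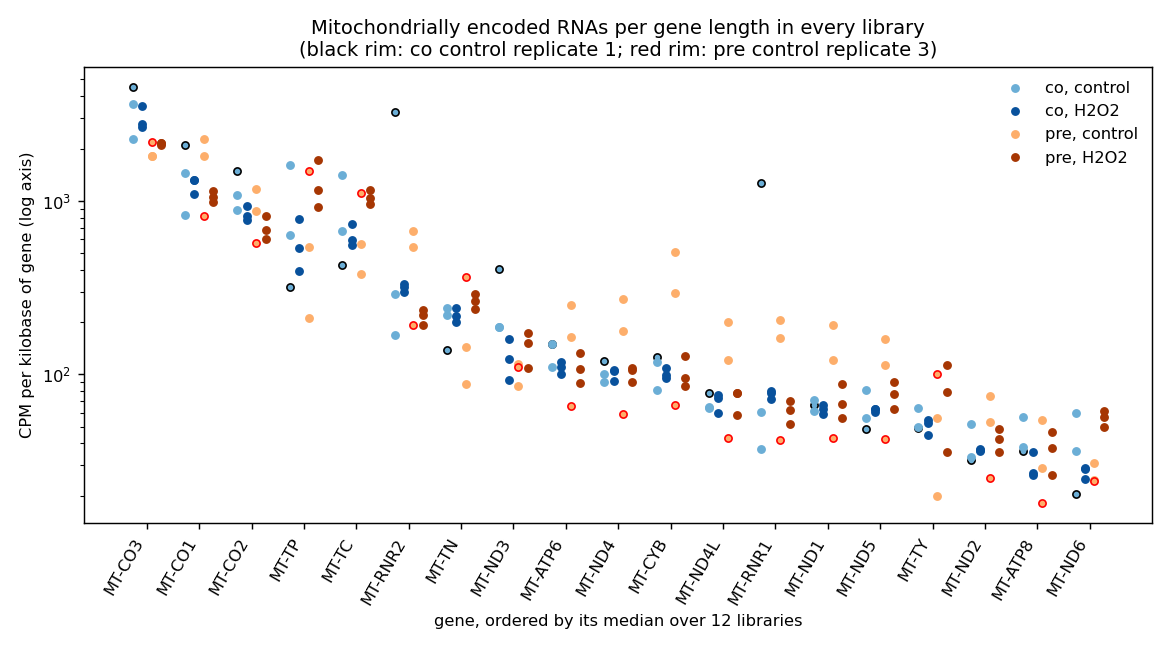
Level of the 19 members tested in every comparison, in TMM-scaled CPM per kilobase of gene (log axis), one point per library, with genes ordered by their median. MT-CO3, MT-CO1 and MT-CO2 have the highest medians, of 2227, 1223 and 844, and co-treatment control replicate 1 (black rim) lies far above all other libraries at MT-RNR1 and MT-RNR2.

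Co-treatment was examined first. None of the 19 members that passed the filter on low counts was called at an adjusted p below 0.05 (edgeR quasi-likelihood test), where 0.598% of the 22089 genes tested were called. An unadjusted p below 0.05 was reached by 6 members, all with lower values under H2O2: MT-ND3, MT-ATP6, MT-ATP8, MT-CO2 and both rRNA genes. The edgeR exact test called 1 member, MT-ND3 (adjusted p = 0.0251), and DESeq2 and limma-voom called 0. Of all members, 2 had groups that did not overlap, MT-ND3 and MT-ATP8, against 14.0% of all genes tested. Over the 13 protein genes the median log2 fold change was -0.22, beside -0.001 over all genes.

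MT-ND3 had 140, 64.8 and 64.7 CPM in the 3 controls and 55.2, 32.0 and 42.4 CPM in the 3 H2O2 libraries. All H2O2 values lay below all control values, and control replicate 1 was well above its fellow controls. The log2 fold change was -1.06 ± 0.28 (SE) with an adjusted p of 0.183, and -0.58 ± 0.17 without control replicate 1. MT-CO2, the subunit that accepts electrons from cytochrome c, had 1010, 736 and 602 CPM in the controls and 639, 559 and 527 CPM under H2O2, groups that overlapped. Its log2 fold change was -0.44 ± 0.18 (adjusted p = 0.519), and -0.21 ± 0.13 without control replicate 1. MT-ATP8 had 7.46, 7.89 and 11.7 CPM in the controls and 7.36, 5.59 and 5.44 CPM under H2O2, with an adjusted p of 0.472.

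The rRNAs gave the widest values of the co-treatment. MT-RNR1, the small-subunit rRNA, had 1212, 57.9 and 35.5 CPM in the controls and 76.7, 74.4 and 68.9 CPM under H2O2. MT-RNR2 had 5054, 452 and 263 CPM in the controls and 495, 517 and 466 CPM under H2O2. For both genes, control replicate 1 was far above every other library while the other 2 controls were below all 3 H2O2 libraries. The log2 fold changes were -2.57 ± 0.96 (adjusted p = 0.451) for MT-RNR1 and -1.96 ± 0.80 (adjusted p = 0.517) for MT-RNR2. Without control replicate 1 they turned to 0.65 ± 0.17 (adjusted p = 0.107) and 0.47 ± 0.18 (adjusted p = 0.341), so the direction was set by that library. Its MT-RNR2 to MT-RNR1 count ratio was 4.17, against 5.31 to 7.80 in the other 11 libraries.

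The remaining complex I genes and MT-CYB differed little between the co-treatment groups. MT-ND1, MT-ND2, MT-ND4, MT-ND4L and MT-ND5, which together with MT-ND3 and MT-ND6 form the membrane core of complex I, had log2 fold changes between -0.09 and 0.02, with SEs of 0.12 to 0.17. MT-CYB was at 124 ± 27.0 CPM in the controls and 115 ± 7.54 CPM under H2O2 (SD, n = 3), a log2 fold change of -0.11 ± 0.16. MT-CO1 and MT-CO3 gave -0.23 ± 0.26 and -0.22 ± 0.22, and MT-ATP6 and MT-ATP8, the membrane subunits of the ATP synthase, -0.32 ± 0.14 and -0.56 ± 0.21. MT-ND6 had 10.8, 19.0 and 31.3 CPM in the controls and 15.0, 13.1 and 15.2 CPM under H2O2, so the controls spanned the H2O2 values. Its log2 fold change was -0.49 ± 0.29 (adjusted p = 0.743). Only control replicate 1 lay below the H2O2 values. Without it the log2 fold change was -0.79 ± 0.19 (edgeR quasi-likelihood test, adjusted p = 0.0608), which was not called. Without control replicate 3, the highest control, it was -0.04 ± 0.21 (same test, adjusted p = 0.979), so the estimate depended on that library. In both experiments the controls varied more than the H2O2 libraries for 18 of 19 members, with median coefficients of variation of 27.7% against 9.86% in the co-treatment and 55.9% against 15.3% in the pre-treatment. Each control group here includes the library that stood apart from its group. The values are for these members only, so the spread is not shown to be particular to them.

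**Figure D2:**
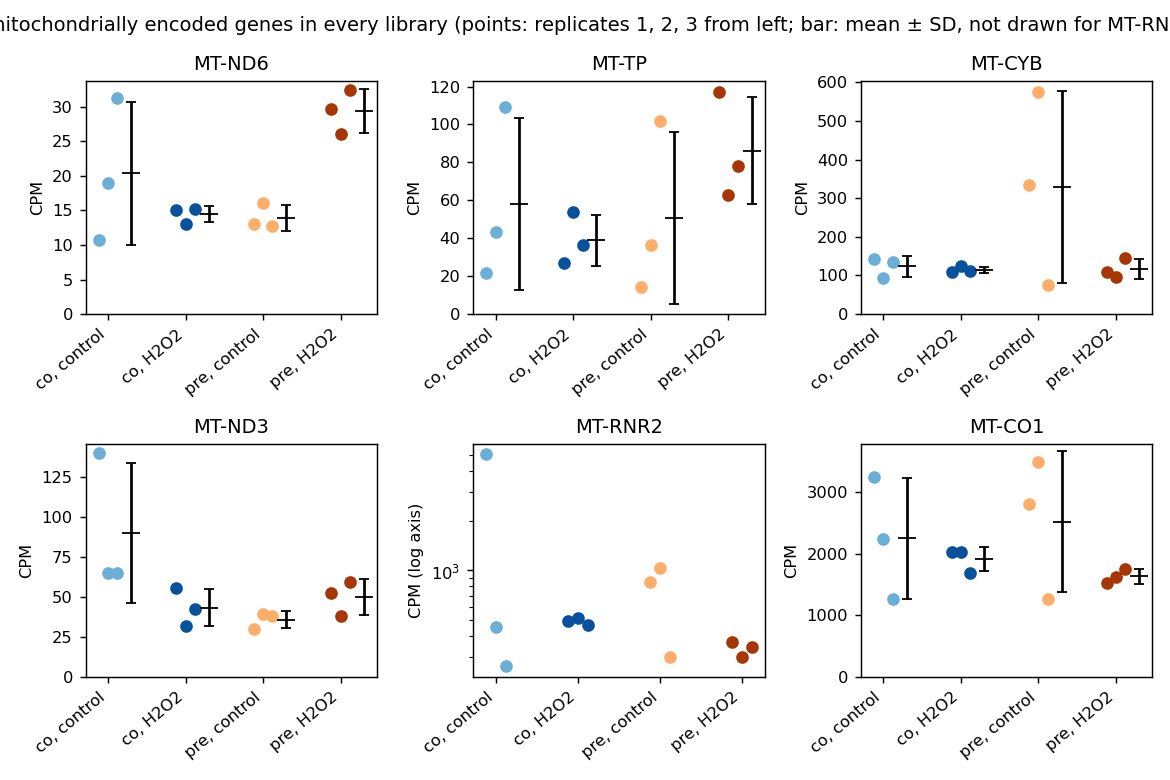
CPM of 6 members in every library, with points for replicates 1 to 3 from left to right and bars for the mean ± SD of 3 libraries (not drawn for MT-RNR2, whose axis is logarithmic). MT-ND6 is the gene whose H2O2 pre-treated libraries (26.1 to 32.5 CPM) all lie above their 3 controls (12.7 to 16.1 CPM), while pre-treatment control replicate 3 sits among or beyond the H2O2 libraries for MT-TP, MT-CYB, MT-RNR2 and MT-CO1.

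In the pre-treatment with all 6 libraries, MT-ND6 was the member that separated the groups. It had 12.99, 16.1 and 12.7 CPM in the controls and 29.7, 26.1 and 32.5 CPM after H2O2. Each H2O2 library was above each control, control replicate 3 included. The log2 fold change was 1.11 ± 0.18 (SE), with an unadjusted p of 0.000229 and an adjusted p of 0.192 in the edgeR quasi-likelihood test, which therefore did not call it. Its estimate stayed between 1.03 and 1.21 when each library was left out in turn. The edgeR exact test and DESeq2 did call it (adjusted p = 0.00121 and 9.47e-05), and over all alternatives its adjusted p ranged from 9.47e-05 to 0.954.

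None of the 20 members tested over the 6 pre-treatment libraries was called, with 0.0242% of 24743 genes called by the edgeR quasi-likelihood test. An unadjusted p below 0.05 was reached by 5 (MT-ND6, MT-ND3, MT-CYB and both rRNA genes), and limma-voom called 0. MT-ND6 was the 1 member of 20 whose groups did not overlap, against 16.4% of all genes tested. MT-CYB had 335, 575 and 76.3 CPM in the controls and 109, 97.3 and 145 CPM after H2O2. Controls 1 and 2 were above every H2O2 library and control replicate 3 was below them all. The log2 fold change was -1.45 ± 0.58 (adjusted p = 0.409). MT-RNR1 and MT-RNR2 had log2 fold changes of -1.11 ± 0.47 and -1.08 ± 0.39, with the same order of libraries.

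Without control replicate 3, which the study's own clustering does not show, 13 of the 21 members tested were called. In this fit of 3 H2O2 libraries against 2 controls, 13.2% of the 26350 genes tested were called higher and 12.8% lower, so calls were common throughout the transcriptome. Of the members, 9 fell and 4 rose. All 9 that fell lie on the heavy-strand transcript and all 4 that rose on the light-strand transcript. The groups of 16 members did not overlap, against 57.2% of all genes tested.

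The members that fell after H2O2 pre-treatment in this fit came from complexes I, III, IV and V and from the ribosome. MT-CYB had the largest change, a log2 fold change of -1.89 ± 0.24 (SE, adjusted p = 0.00201), from 455 ± 170 CPM in the 2 controls to 117 ± 25.0 CPM in the 3 H2O2 libraries (mean ± SD). MT-RNR1 fell from 176 ± 29.3 to 58.5 ± 8.95 CPM (log2 fold change -1.51 ± 0.16, adjusted p = 0.00108) and MT-RNR2 from 944 ± 139 to 336 ± 33.7 CPM (-1.42 ± 0.14, adjusted p = 0.00105). Among complex I genes, MT-ND4L, MT-ND1, MT-ND4 and MT-ND5 fell, by log2 fold changes of -1.10, -1.08, -1.08 and -0.76. MT-CO1, the subunit that holds the oxygen-reducing site of complex IV, had 2809 and 3495 CPM in the controls and 1517, 1628 and 1753 CPM after H2O2 (-0.88 ± 0.15, adjusted p = 0.00509). MT-ATP6, which forms part of the proton channel of the ATP synthase, fell by 0.84 on the log2 scale (adjusted p = 0.0210). That call was lost when control replicate 2 or H2O2 replicate 1 or 2 was also left out (adjusted p = 0.186, 0.0609 and 0.0614), as was that of MT-ND5 in the same 3 fits, and those of MT-ND1 and MT-ND4L without control replicate 2. The calls of MT-RNR1 and MT-RNR2 were lost in 1 fit over both experiments (adjusted p = 0.227 and 0.179).

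In control replicate 3, the left-out library, MT-CYB was at 76.3 CPM, MT-RNR1 at 39.9, MT-RNR2 at 299, MT-ND4 at 81.9 and MT-CO1 at 1257 CPM. Each of these lay below all 3 H2O2 libraries, so these 5 changes were not shared by the third control. The co-treatment controls, also on ATRA alone, had 93.3 to 144 CPM of MT-CYB and 125 to 164 CPM of MT-ND4. Pre-treatment controls 1 and 2 were above these, at 335 and 575 CPM and at 245 and 377 CPM. For MT-CO1 and both rRNA genes, co-treatment control replicate 1 (3240, 1212 and 5054 CPM) lay within or above the range of those 2 controls.

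Heavy-strand members did not all move alike. MT-CO3 had 1421 and 1423 CPM in controls 1 and 2 and 1650, 1681 and 1679 CPM after H2O2 (log2 fold change 0.30 ± 0.12, adjusted p = 0.0957). MT-ND3 had 29.7 and 39.6 CPM in these controls and 52.3, 37.8 and 59.6 CPM after H2O2 (0.60 ± 0.21, adjusted p = 0.0665). Neither passed the threshold, and both estimates had the opposite sign to the 9 genes that fell. MT-ND2 and MT-CO2 missed it at -0.53 ± 0.18 (adjusted p = 0.0603) and -0.48 ± 0.17 (adjusted p = 0.0726). MT-ATP8, a short gene that shares 46 bases with MT-ATP6, had a log2 fold change of -0.10 ± 0.32. MT-TF and MT-TH passed the filter in this fit with no more than 38 and 18 counts in a library and were not called.

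Of the light-strand members, MT-TP rose most, from 14.3 and 36.6 CPM in controls 1 and 2 to 117, 62.6 and 78.2 CPM after H2O2 (log2 fold change 1.83 ± 0.40, adjusted p = 0.0135). Left-out control replicate 3 stood at 102 CPM, within the H2O2 range. MT-TN rose by 1.27 ± 0.23 (adjusted p = 0.00647) and MT-TC by 1.22 ± 0.18 (adjusted p = 0.00363), and control replicate 3 was again high, at 26.6 and 72.8 CPM against H2O2 means of 19.3 ± 1.96 and 69.1 ± 6.55 CPM. MT-ND6 rose by 1.09 ± 0.17 (adjusted p = 0.00395) and was called under all 17 alternatives to this fit. MT-TY, at 1.31 to 7.51 CPM, had a log2 fold change of 1.09 ± 0.54 and was not called.

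**Figure D3:**
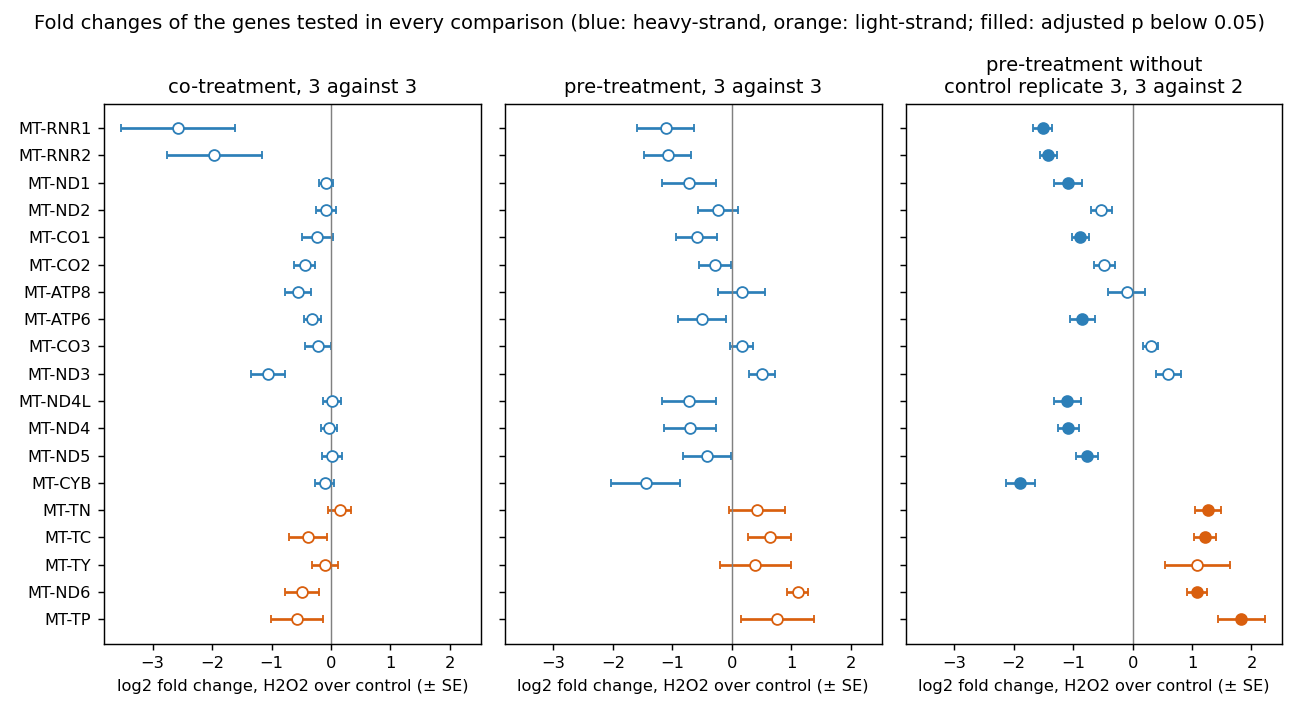
Log2 fold change of H2O2 over control with its SE for 19 members in co-treatment, pre-treatment with 6 libraries and pre-treatment without control replicate 3. Filled points have an adjusted p below 0.05; in the right panel 9 heavy-strand genes (blue) are filled below 0 and 4 light-strand genes (orange) above 0, and no point is filled in the other panels.

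The balance between the strands was then expressed within each library, a measure chosen after these values were seen. Strand here is that of the annotated gene, as the strand setting of the counting is not given. In every library most light-strand counts were on the 4 counted tRNA genes, and heavy-strand counts included the rRNA left after depletion. Light-strand genes had 0.863 and 1.19 counts per 100 heavy-strand counts in pre-treatment controls 1 and 2, 5.38 in control replicate 3, and 5.17, 3.75 and 4.05 after H2O2. In the co-treatment, the controls had 0.499, 1.82 and 5.42 and the H2O2 libraries 1.50, 2.29 and 1.99. In each experiment 1 control, replicate 3, had a higher ratio than all 3 H2O2 libraries. MT-ND6 alone was also taken per 100 counts of the 12 heavy-strand protein genes. There, control replicate 3 was above the H2O2 libraries in the co-treatment (0.712 against 0.245 to 0.312). In the pre-treatment it was below them (0.339 against 0.611 to 0.692). The log2 difference of the ratio over all light-strand genes was 1.28 ± 0.83 over the 6 pre-treatment libraries (exact two-sided permutation p = 0.4). It was 2.08 ± 0.27 without control replicate 3 (exact permutation p = 0.2, the smallest that 2 against 3 allows) and 0.15 ± 1.01 in the co-treatment (exact permutation p = 0.8).

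This balance moved with the share of gene counts that fell on 3530 small structured RNA loci (small nuclear, small nucleolar, 7SK, 7SL, Y and similar RNAs). The small RNA share was 1.59% and 2.88% in pre-treatment controls 1 and 2, 17.6% in control replicate 3, and 15.1%, 15.0% and 13.3% after H2O2. In the co-treatment it was 5.31%, 9.87% and 12.9% in the controls and 5.04%, 13.03% and 9.43% under H2O2, in the order of the strand ratio within each group. Within the H2O2 pre-treated group the orders differed. Its part in the light-strand values was not tested. MT-ND6 followed the order of the small RNA share over the co-treatment controls (10.8, 19.0 and 31.3 CPM), while pre-treatment control replicate 3, with the highest share of all libraries, had 12.7 CPM, the lowest value of its experiment. Reads outside any gene also differed, at 0.80 and 0.83 per gene count in pre-treatment controls 1 and 2 and 0.20 in control replicate 3, with 0.343 to 0.462 in the H2O2 libraries. Their part was likewise not tested.

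**Figure D4:**
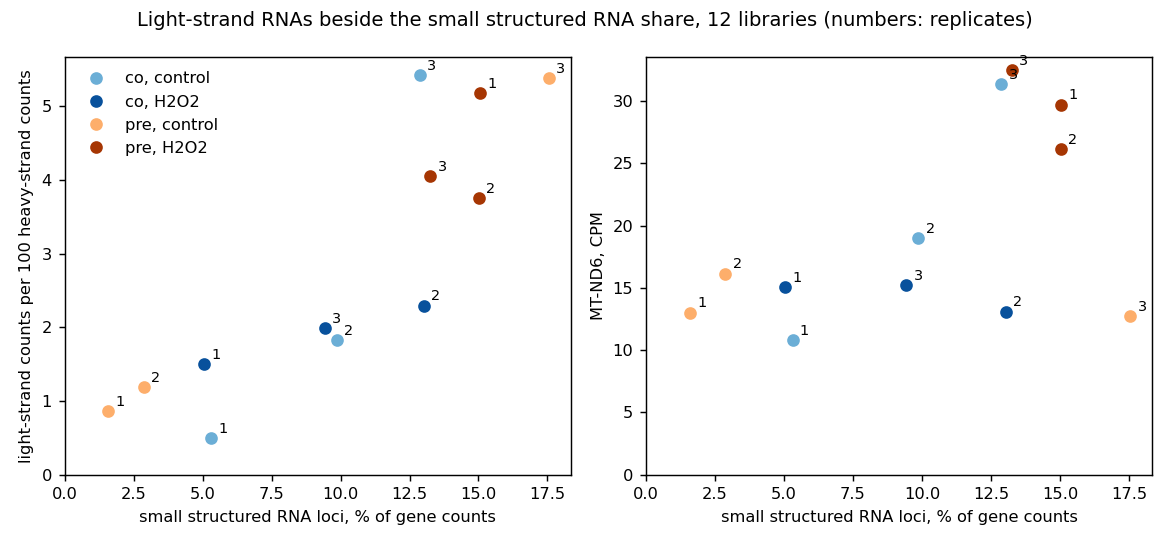
Light-strand counts per 100 heavy-strand counts (left) and MT-ND6 in CPM (right) against the percentage of gene counts on small structured RNA loci, one point per library with its replicate number. The strand ratio is 0.499 to 1.50 in the 4 libraries with a small RNA share of at most 5.31%, and pre-treatment control replicate 3, at 17.6%, has a ratio of 5.38 but 12.7 CPM of MT-ND6.

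As a whole, the 13 mitochondrial mRNAs took 0.868%, 0.635% and 0.407% of gene counts in the co-treatment controls and 0.620%, 0.528% and 0.500% under H2O2. The controls spanned the H2O2 values (log2 difference -0.15 ± 0.33, exact two-sided permutation p = 0.7), and without control replicate 1 the difference was 0.11. The pre-treatment controls had 0.670%, 0.822% and 0.325%, and the H2O2 libraries 0.424%, 0.428% and 0.489%. The difference was -0.34 ± 0.41 with all 6 (exact permutation p = 0.4) and -0.73 ± 0.16 without control replicate 3 (exact permutation p = 0.2, the smallest possible, as 0.1 is for 3 against 3). In bulk RNA, fewer cells with these transcripts and less RNA per cell cannot be told apart, nor can fewer mitochondrial genomes and fewer transcripts per genome.

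**Figure D5:**
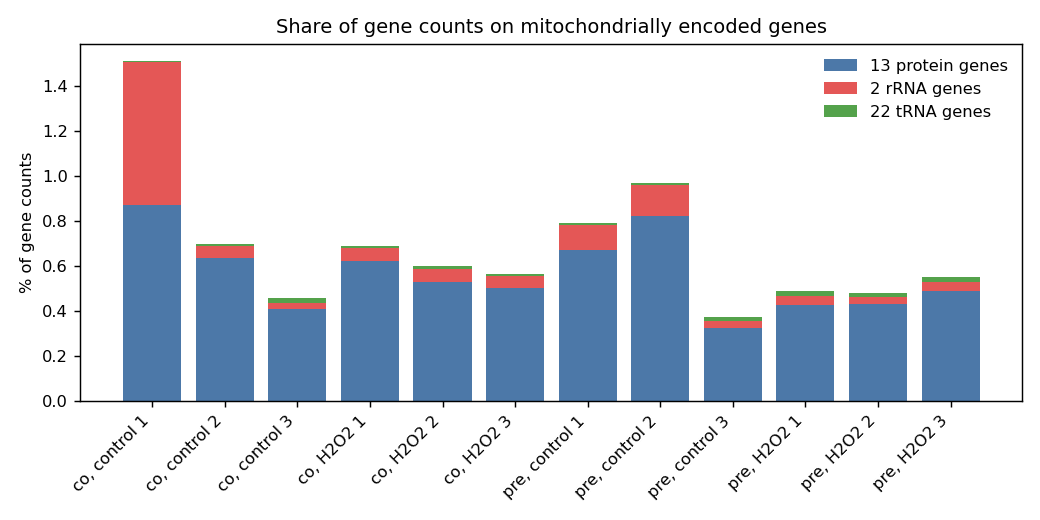
Percentage of gene counts on the 13 protein, 2 rRNA and 22 tRNA genes of the mitochondrial genome in each library. Co-treatment control replicate 1 reaches 1.51% because its rRNA genes add 0.636%, and pre-treatment control replicate 3 has the lowest total, 0.372%.

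Shares within the 13 mRNAs do not depend on the scaling between libraries. MT-ND6 made up 0.217%, 0.214% and 0.338% of them in the pre-treatment controls and 0.688%, 0.607% and 0.677% after H2O2, and it was the gene of the 13 whose shares did not overlap over all 6 libraries. The log2 difference was 1.39 ± 0.22 (exact two-sided permutation p = 0.1, the smallest possible, 0.827 adjusted over the 13 genes). MT-CO3 made up 23.8% and 18.9% in pre-treatment controls 1 and 2, 45.3% in control replicate 3 and 35.0% to 39.1% after H2O2. MT-CYB made up 5.61% and 7.65% in controls 1 and 2, 2.03% in control replicate 3 and 2.27% to 3.03% after H2O2. In the co-treatment, the shares of MT-ND3 (1.64%, 1.01% and 1.46% in the controls, 0.909%, 0.597% and 0.867% under H2O2) and of MT-CO2 (11.8%, 11.5% and 13.6%, then 10.5%, 10.4% and 10.8%) did not overlap. Each had an exact permutation p of 0.1 and 0.65 adjusted over the 13 genes.

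Nuclear genes for subunits of the same complexes gave a reference from the other genome. Over the 77 of them, 62 rose and 0 fell in the pre-treatment without control replicate 3, a fit that called 13.2% of all genes higher and 12.8% lower, with a median log2 fold change of 0.61, against -0.76 for the 13 mitochondrial mRNAs and 0.01 for all genes tested. With all 6 libraries none of the 77 was called (edgeR, 0 with an unadjusted p below 0.05) and the median was 0.18, and in the co-treatment none was called (1 with an unadjusted p below 0.05) and the median was 0.05. The summed CPM of the 13 mitochondrial mRNAs over that of the 77 nuclear mRNAs was 1.29 and 1.72 in pre-treatment controls 1 and 2, 0.441 in control replicate 3, and 0.639, 0.661 and 0.752 after H2O2. The log2 difference was -0.54 ± 0.60 with all 6 libraries (exact permutation p = 0.4) and -1.13 ± 0.22 without control replicate 3 (exact permutation p = 0.2). The co-treatment ratios were 1.53, 0.956 and 0.582 in the controls and 0.877, 0.732 and 0.740 under H2O2, which overlapped (log2 difference -0.28 ± 0.41, exact permutation p = 0.6).

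Factors that transcribe, replicate, process and degrade mitochondrial RNA were taken as a list of 39 nuclear genes. By edgeR none was called in the co-treatment or in the pre-treatment with 6 libraries, where 3 and 7 had an unadjusted p below 0.05 and the medians were 0.10 and 0.23. Without pre-treatment control replicate 3, 21 rose and 1 fell, beside 13.2% and 12.8% of all genes tested, with a median log2 fold change of 0.48. For 15 of the 21, the left-out control was at or above the lowest H2O2 library, and for 3 above all of them, as for HSD17B10 (133 CPM against 90.8 to 99.1) and TBRG4 (140.0 CPM against 115.0 to 123.2). MTERFD2, of the mitochondrial termination factor family, rose by 0.87 ± 0.13 and MTERFD3 of the same family by 0.75 ± 0.16. HSD17B10, a subunit of the RNase P that cuts mitochondrial tRNAs free at their 5′ ends, rose by 0.66 ± 0.11, and TBRG4, an RNA-binding protein of the FASTK family, by 0.63 ± 0.11. SSBP1, the mitochondrial single-stranded DNA-binding protein, rose by 0.71 ± 0.14. The gene that fell was TFB1M, which methylates the small rRNA (-0.40 ± 0.12, adjusted p = 0.0431).

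The core of the transcription machinery gave mixed values in that fit. POLRMT, the RNA polymerase of mitochondria, had 24.6 and 36.2 CPM in pre-treatment controls 1 and 2 and 26.4, 31.1 and 34.6 CPM after H2O2, a log2 fold change of 0.08 ± 0.19 (adjusted p = 0.773). TFAM, which packages mitochondrial DNA and starts transcription, had 62.2 and 54.3 CPM in the controls and 77.0, 74.0 and 97.3 CPM after H2O2 (0.58 ± 0.15, adjusted p = 0.0241), with control replicate 3 at 81.2 CPM. TFB2M, its partner at the promoters, rose by 0.83 ± 0.19 (adjusted p = 0.0162) and PNPT1, a subunit of the mitochondrial RNA degradation complex, by 0.80 ± 0.18 (adjusted p = 0.0163). LRPPRC, which stabilises mitochondrial mRNAs, and POLG, the DNA polymerase, were not called, at 0.31 ± 0.13 (adjusted p = 0.112) and 0.02 ± 0.13 (adjusted p = 0.936). Of 7 regulators of mitochondrial biogenesis, GABPB1 rose (0.49 ± 0.13, adjusted p = 0.0284) and the others were not called. PPARGC1A, the coactivator PGC-1α, was at or below 0.186 CPM in every library.

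The change with H2O2 was compared directly between the experiments through the interaction of treatment and experiment over all 12 libraries. None of the 20 members tested was called by the edgeR quasi-likelihood test, 2 had an unadjusted p below 0.05 and DESeq2 called 1 (MT-ND6), with 0.0287% of 24407 genes called. The largest departures among the protein genes were MT-ND6 (difference of log2 fold changes, pre-treatment minus co-treatment, 1.57 ± 0.40, adjusted p = 0.381) and MT-ND3 (1.54 ± 0.42, adjusted p = 0.400). Without pre-treatment control replicate 3, where 3.32% of the 25668 genes tested were called with a more positive and 4.70% with a more negative change, 6 members were called: MT-ND3 and MT-ND6 in the positive direction for the pre-treatment, and MT-CYB, MT-ND1, MT-ND4 and MT-ND4L in the negative one.

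Part of the mitochondrial genome has a near-identical copy in the nucleus, where reads of both can be confused. In GRCh37, chr1:564461-570304 matches the mitochondrial bases 3911 to 9755 at 98.5% identity, and it covers MT-ND2, MT-CO1, MT-CO2, MT-ATP8, MT-ATP6, MT-TN, MT-TC and MT-TY whole. Windows of 150 bases with an exact nuclear match made up 15.7% of MT-ND2, 14.5% of MT-CO1, 10.4% of MT-RNR1 and 1.1% of MT-ND1, and none of any other protein or rRNA gene, MT-ND6 and MT-CYB included. Reads aligned to several places, 13.6% to 31.2% of all reads listed, were not counted, which can lower these 4 genes. The 188 nuclear pseudogenes of mitochondrial genes together had 227 to 1126 counts per library, 0.10% to 0.28% as many as the mitochondrial genes. Of the 23 pseudogenes tested without pre-treatment control replicate 3, 6 fell and 0 rose, where 12.8% of all genes tested fell.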

How the data were processed

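Total RNA was depleted of rRNA with the Ribo-Zero kit and made into libraries with the TruSeq Stranded Total RNA kit. Per the labels, the authors trimmed reads with cutadapt 2.10 after FastQC 0.11.8, aligned them to hg19 with HISAT2 2.1.0 and counted reads per gene with HTSeq 0.7.2. The deposited values are raw counts per gene symbol in 12 libraries of 27576276 to 98287391 gene counts. The annotation version, the strand setting of the counting and the mitochondrial sequence of the aligned build are not given in the sources used here, so sense and antisense reads cannot be told apart. The authors' 2 tables of their own fold changes and p-values were not used. Summary lines of uncounted reads stayed out of library sizes.

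Counts were scaled by TMM and tested with the edgeR 4.0.16 quasi-likelihood test in R 4.3.3, per experiment, over genes that reached the CPM equal to 5 counts in the smallest library, in a number of libraries no lower than the smaller group's size. P-values were adjusted by Benjamini-Hochberg over all genes tested, and a gene was called at an adjusted p below 0.05. CPM are TMM-scaled over 12 libraries. Values per library were compared on the log2 scale by exact two-sided permutation (SciPy 1.17.1), whose smallest p is 0.1 for 3 against 3 and 0.2 for 2 against 3. Pre-treatment was fitted with all 6 libraries and without control replicate 3. Alternatives were DESeq2 1.42.0, limma 3.58.1 (voom), the edgeR exact test, other scalings and filters, a replicate block and leaving out each library. The fits were tested on simulated data. Sequences were read from GRCh37 with the GENCODE v44 annotation lifted to it, and nuclear copies were found with BLAST 2.17.0 at 98% identity or more.

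All 13 protein and 2 rRNA genes were named, the 4 tRNAs that passed the filter in both experiments, 7 fixed nuclear factors, and up to 5 called genes of the other lists by smallest adjusted p. The members and lists were chosen with earlier results of these data known. The floor of 3 counts for genes with no count covers counting error only. The SDs and SEs include the spread between libraries.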

Additional observations from a re-analysis of the deposited data

How the results depend on the processing

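The co-treatment call count of 0 held under the other scalings, DESeq2, limma-voom, the stricter filter, the joint fit and each left-out library. It became 1 by the edgeR exact test (MT-ND3), 4 with no filter (MT-ND3, MT-TP, MT-RNR1 and MT-RNR2) and 1 with a replicate block (MT-ND3). The pre-treatment count over 6 libraries became 1 by the edgeR exact test, 1 by DESeq2 and 1 with no filter, MT-ND6 each time, and ranged from 0 to 13 as libraries were left out, the 13 coming from control replicate 3. Without that library the count of 13 ranged from 9 to 15 over further left-out libraries and was 17 with no filter, 17 with a replicate block and 10 when an absolute log2 fold change above 1 was also required. The count for the difference between the experiments became 1 by DESeq2 and 2 with no filter and ranged from 0 to 6 over left-out libraries, the 6 again without pre-treatment control replicate 3. The edgeR exact test has no form for this difference and was not run there. Same-numbered samples did not deviate together from their group means (correlations of -0.27 to 0.05). An outlying library can dominate such deviations, so this cannot exclude that the numbers pair the cultures. The labels do not say whether they do, and a call gained or lost under the replicate block is not read as a change of effect.

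Signs that turned belong to values that were not called in the main fits. Of the genes below, MT-RNR1, MT-RNR2 and MT-TP were called lower in the co-treatment with no filter. The edgeR quasi-likelihood test then gave adjusted p-values of 5.52e-57, 9.84e-29 and 0.00959. Leaving out 1 co-treatment library at a time moved the log2 difference in mRNA share from -0.44 to 0.11, that of the mitochondrial to nuclear ratio from -0.63 to 0.064 and that of the strand ratio from -0.73 to 0.99. The last was -0.034 without the rRNA genes, -0.16 for MT-ND6 alone and -0.0178 for the tRNAs alone. For single genes in the co-treatment the ranges were -3.12 to 0.65 for MT-RNR1, -2.48 to 0.47 for MT-RNR2, -0.52 to 0.13 for MT-CO1, -0.45 to 0.015 for MT-CO3, -0.28 to 0.017 for MT-CYB, -0.21 to 0.16 for MT-ND2, -0.13 to 0.077 for MT-ND4, -0.059 to 0.11 for MT-ND4L and -0.13 to 0.26 for MT-ND5, and MT-ND4 was 0.008 with library sizes alone. The counted tRNAs turned as well, with ranges of -0.96 to 0.27 for MT-TP, -0.71 to 0.20 for MT-TC, -0.057 to 0.30 for MT-TN and -0.16 to 0.030 for MT-TY. In the pre-treatment the ranges were -0.10 to 0.67 for MT-ATP8, -0.53 to 0.12 for MT-ND2 and -0.026 to 1.09 for MT-TY over 6 libraries. Without control replicate 3 the range was -0.48 to 0.44 for MT-ATP8. Set against the median log2 CPM of the 13 mRNAs instead of their sum, MT-CO1 and MT-ND5 turned to 0.042 and 0.16 in that fit. The cause of these turns was not tested beyond the library each leaves out. The 18 tRNAs other than MT-TP, MT-TC, MT-TN and MT-TY had at most 38 counts in a library, and no difference was detectable at this depth. MT-TY was called without control replicate 3 with no filter (adjusted p = 0.00149).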
